A study of Homo sapiens with 12 samples.

Results

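The C/EBP (CCAAT/enhancer-binding protein) genes were taken as the rows of the deposited expression table whose gene symbol is CEBPA, CEBPB, CEBPD, CEBPE, CEBPG or CEBPZ. These are 6 of the 58233 genes in the table, and all 6 passed the filter on low values (at least 5 RPKM in at least 3 libraries), which left 7820 genes for testing. HL-60 is an established human acute myeloid leukaemia (AML) cell line, labelled as wild type and grown in RPMI medium with fetal calf serum. RNA was sequenced after 3 h from 4 groups of 3 libraries each. They were untreated cells, cells treated with 100 nM all-trans retinoic acid (ATRA), a ligand of the retinoic acid receptors, cells treated with 500 nM palbociclib, which inhibits CDK4 and CDK6, and cells given both drugs (the combination). All 12 libraries came from 1 cell line, and the controls are labelled only as untreated, with no solvent named. The labels do not say that the libraries of a group came from separate cultures. The study's methods call them triplicates and give independent experiments as a general rule for all its data, without naming these libraries. The p-values measure the spread between these libraries, which may be technical. Values are RPKM (reads scaled to gene length and to the size of the library, a level per gene length) that were deposited as whole numbers.

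C/EBP proteins are transcription factors with a basic region that contacts DNA and a leucine zipper through which they form homodimers or heterodimers. In the myeloid lineage C/EBPα is needed for the step to granulocyte and monocyte progenitors, and C/EBPε acts later, in the terminal maturation of neutrophils and the expression of secondary granule proteins. C/EBPβ drives granulopoiesis under stress and is a main factor of monocytes and macrophages. C/EBPδ is an inflammation-responsive member, C/EBPγ lacks the transactivating domains of its relatives and is best known as a heterodimer partner. The product of CEBPZ is not a bZIP protein but a nucleolar factor of ribosome assembly that shares only the name.

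The levels separated the family into 3 patterns. CEBPE and CEBPB rose with ATRA, both without and with palbociclib, and CEBPA rose with ATRA and with the combination against untreated cells. The ratios of group means for ATRA against untreated cells were 3.40 for CEBPE, 5.71 for CEBPB and 1.52 for CEBPA. CEBPD lay at 6 to 11 RPKM in all 12 libraries and passed no test at an adjusted p under 0.001. CEBPZ fell with the combination, and CEBPG had lower values in every ATRA-treated library than in any library without ATRA, but it did not pass at that threshold. Palbociclib alone brought no member past it.

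**Figure D1:**
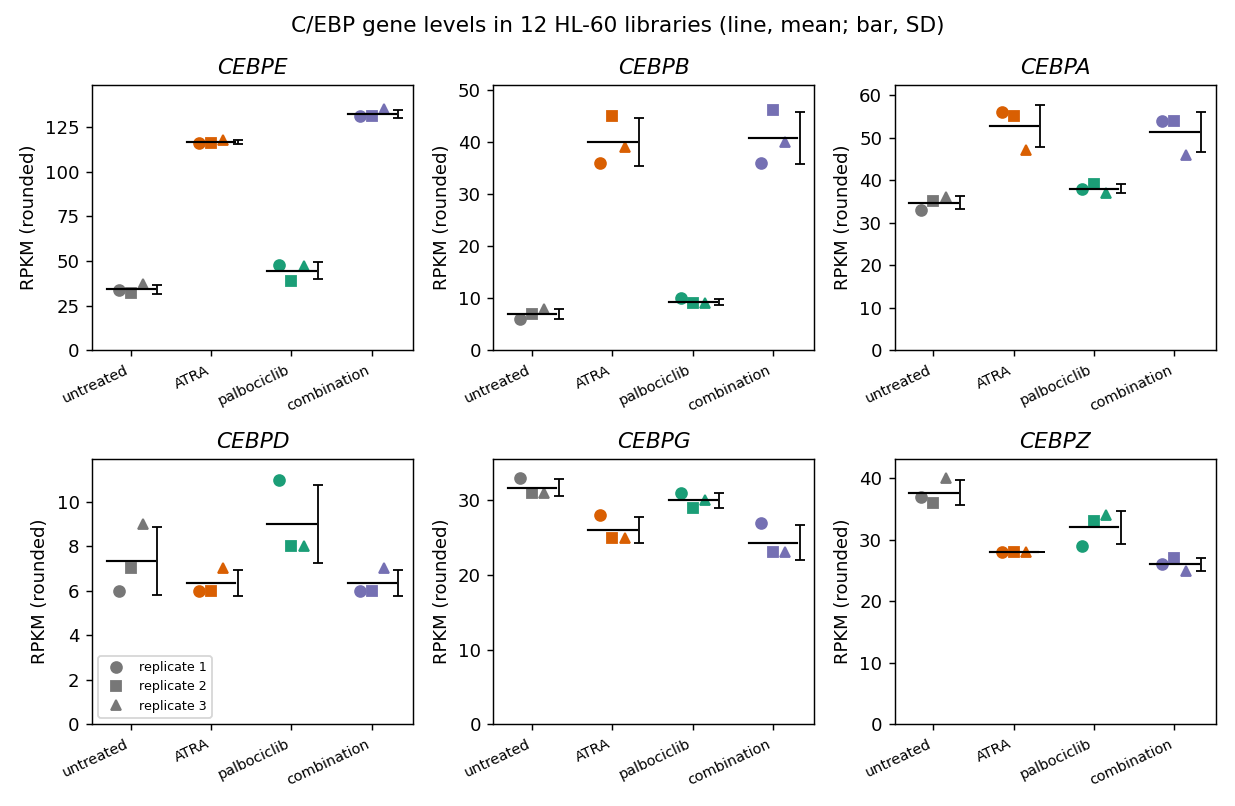
RPKM (vertical axis, starting at 0) of the 6 C/EBP genes in the 12 libraries by treatment; points are libraries, lines are group means and bars are SDs. CEBPE lies at 116 to 135 RPKM in the 6 libraries with ATRA and at 32 to 48 RPKM in the 6 without it, while CEBPD stays between 6 and 11 RPKM.

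The sequences before RefSeq starts of the 3 genes that rose are shown here because these members moved together with ATRA. They are the 250 bases before the RefSeq start site (GRCh38.p14), written 5′ to 3′ on the gene's strand, with matches to the searched motifs in capitals. For CEBPB, whose second RefSeq start lies inside a longer transcript, the window of the outer start is followed by a stretch of 30 bases, from 40 to 11 bases upstream of the inner start. The RefSeq start of CEBPE lies inside the gene as GENCODE gives it (chr14:23117036-23120256). Its window is therefore within that gene and not upstream of its outer end.
CEBPE, chr14:23119256-23119505, minus strand: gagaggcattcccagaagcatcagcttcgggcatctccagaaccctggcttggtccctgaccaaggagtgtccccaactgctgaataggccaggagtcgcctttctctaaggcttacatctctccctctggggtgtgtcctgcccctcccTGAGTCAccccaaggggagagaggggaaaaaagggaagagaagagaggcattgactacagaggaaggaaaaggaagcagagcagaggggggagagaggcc
CEBPA, chr19:33302535-33302784, minus strand: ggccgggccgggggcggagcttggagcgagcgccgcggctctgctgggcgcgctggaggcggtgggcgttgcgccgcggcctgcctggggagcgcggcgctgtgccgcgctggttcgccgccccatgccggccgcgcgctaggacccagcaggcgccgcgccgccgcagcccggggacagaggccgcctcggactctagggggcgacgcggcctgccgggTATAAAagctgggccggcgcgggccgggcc
CEBPB outer start, chr20:50190333-50190582, plus strand: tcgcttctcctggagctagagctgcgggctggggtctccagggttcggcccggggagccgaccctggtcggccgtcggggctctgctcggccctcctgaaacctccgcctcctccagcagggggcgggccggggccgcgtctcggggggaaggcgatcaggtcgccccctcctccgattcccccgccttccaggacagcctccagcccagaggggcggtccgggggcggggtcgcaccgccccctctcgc
CEBPB inner start, chr20:50190790-50190819, plus strand: cgggccgccctTATAAAtaaccgggctcag

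The motifs were searched on both strands in the windows of 5 members (CEBPA, CEBPB, CEBPE, CEBPG and CEBPZ), and no match overlapped another. CEBPD was left out of this search, so nothing is said of its window. The TATA core TATAAA stood 30 bases upstream of the CEBPA start and 29 bases upstream of the inner CEBPB start, and it is present in 11.1% of the 27305 windows of this length. The CEBPE window held TGAGTCA, the site of AP-1 factors, 100 bases upstream of the start, a motif found in 4.2% of all windows, and its GC content was 57.2% against 81.2% for CEBPA. None of the 4 retinoid receptor hexamers searched (AGGTCA, 12.1% of all windows; GGTTCA, 7.2%; AGTTCA, 8.9%; GGGTCA, 12.2%) was in the windows of CEBPE, CEBPA or CEBPB. AGGTCA occurred once on the minus strand 130 bases upstream of the CEBPZ start. The C/EBP site TTNNGNAA, present in 33.6% of all windows, and the E-box CACGTG, present in 6.5%, were in none of the members' windows that were searched. CCAAT, the box that gave the family its name and that is present in 33% of windows, occurred 245 bases upstream of the inner CEBPB start and, on the minus strand, 85 and 24 bases upstream of a CEBPG start. The cyclic AMP response element core TGACG, in 21.7% of windows, occurred 57 bases upstream of the inner CEBPB start and 174 bases upstream of the CEBPZ start. These matches describe letters within 250 bases of annotated starts and were not tested for binding.

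CEBPE (ENSG00000092067, chr14:23117036-23120256 on the minus strand, 4 exon blocks in GENCODE on GRCh38), the late granulocytic member, was measured at 34, 32 and 37 RPKM in untreated cells (34.3 ± 2.52, SD, n = 3) and 116, 116 and 118 RPKM with ATRA (117 ± 1.15). It was measured at 48, 39 and 47 RPKM with palbociclib (44.7 ± 4.93) and 131, 131 and 135 RPKM with the combination (132 ± 2.31). The 6 libraries with ATRA were all above the 6 without it, all 3 palbociclib libraries were above all 3 untreated libraries, and all 3 combination libraries were above all 3 ATRA libraries. The log2 fold change was 1.76 (SE 0.08, adjusted p = 1.806e-07, limma) for ATRA against untreated cells, 1.95 (adjusted p = 1.256e-07) for the combination against untreated cells, and 1.57 (adjusted p = 5.196e-07) for the combination against palbociclib. It was the member with the highest rank by p-value in each of these comparisons, at place 12, 6 and 14 among 7820 genes. In level it moved from above 79.6% of the tested genes in untreated cells to above 94.8% with ATRA and 95.5% with the combination.

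The change of CEBPE on adding palbociclib was small and did not pass the threshold. For palbociclib against untreated cells the log2 fold change was 0.38 (95% interval 0.20 to 0.55, adjusted p = 0.02743, limma), a ratio of means of 1.30. For the combination against ATRA it was 0.18 (95% interval 0.0067 to 0.356, adjusted p = 1), a ratio of means of 1.13, and the libraries with the same replicate number differed by 15, 15 and 17 RPKM. Under the replicate block the adjusted p for the combination against ATRA was 0.3756, and with only those 2 groups in the fit it was 0.1972, so the call did not change. Averaged over both ATRA states, a comparison added after the values were seen, CEBPE was higher with palbociclib by 0.28 on the log2 scale (95% interval 0.155 to 0.402, adjusted p = 0.0202, and 0.004802 with the replicate block).

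CEBPB (ENSG00000172216, chr20:50190830-50192668 on the plus strand, a gene of 1 exon), the stress and macrophage member, was measured at 6, 7 and 8 RPKM in untreated cells (7.0 ± 1.0, n = 3) and 36, 45 and 39 RPKM with ATRA (40 ± 4.58). The values were 10, 9 and 9 RPKM with palbociclib (9.33 ± 0.577) and 36, 46 and 40 RPKM with the combination (40.7 ± 5.03). Libraries with and without ATRA did not overlap, and the lowest palbociclib library was above the highest untreated library by 1 RPKM, the step of the table. Against untreated cells the log2 fold change was 2.50 with ATRA (SE 0.12, adjusted p = 3.621e-07, limma) and 2.52 with the combination (adjusted p = 2.817e-07), and against palbociclib the combination changed it by 2.11 (adjusted p = 1.637e-06). This was the largest log2 fold change among the 6 members in each of these comparisons. Because the untreated level is near the rounding step, the 5.71-fold ratio of means for ATRA against untreated cells could lie between 5.27 and 6.23 from rounding alone. The level moved from above 23.1% of the tested genes in untreated cells to above 82.5% with ATRA.

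Palbociclib alone gave CEBPB a log2 fold change of 0.42 (95% interval 0.15 to 0.69, adjusted p = 0.08948, limma), and palbociclib added to ATRA gave 0.02 (95% interval -0.25 to 0.29, adjusted p = 1). The difference between these effects, the departure from additivity on the log2 scale, was -0.40 (95% interval -0.779 to -0.0113, unadjusted p = 0.04468 and adjusted p = 1 over all tested genes), so it did not pass. Replicate 2 had the highest CEBPB value of the 3 libraries in both ATRA-treated groups.

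CEBPA (ENSG00000245848, chr19:33299934-33302534 on the minus strand, a gene of 1 exon), the progenitor-stage member, was measured at 33, 35 and 36 RPKM in untreated cells (34.7 ± 1.53, n = 3) and 56, 55 and 47 RPKM with ATRA (52.7 ± 4.93). With palbociclib it was measured at 38, 39 and 37 RPKM (38.0 ± 1.00), and with the combination at 54, 54 and 46 RPKM (51.3 ± 4.62). All libraries with ATRA were above all libraries without it, and replicate 3 was the lowest in both ATRA-treated groups. The log2 fold change against untreated cells was 0.60 with ATRA (SE 0.08, adjusted p = 0.0005324, limma) and 0.56 with the combination (adjusted p = 0.0005196), but the combination against palbociclib (0.43, adjusted p = 0.005695) did not pass. Each of the 2 calls was lost in 9 of the 12 fits that left out 1 library, with an adjusted p of up to 0.00402 for ATRA and 0.003795 for the combination. For ATRA these were the fits without any 1 of the untreated or palbociclib libraries, ATRA replicates 1 or 2, or combination replicate 2. For the combination they were those without any 1 of the untreated or palbociclib libraries, ATRA replicate 2, or combination replicates 1 or 2. The CEBPA calls were also lost with the filter at 1 RPKM (adjusted p = 0.0014 for ATRA and 0.001508 for the combination), with almost no filter (0.001474 and 0.001589), with median centring (0.001781 and 0.001256) and with only the libraries compared (0.01033 and 0.008286).

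The effect of ATRA averaged over both palbociclib states, also added after the values were seen, used all 12 libraries and was 0.51 for CEBPA on the log2 scale (SE 0.06, adjusted p = 7.29e-05, limma). It stayed under the threshold in all 22 alternatives that were run, with adjusted p-values from 2.222e-05 to 0.0004483. Palbociclib changed CEBPA by 0.13 on the log2 scale without ATRA (95% interval -0.05 to 0.31, adjusted p = 0.4577) and by -0.04 with ATRA (95% interval -0.22 to 0.15, adjusted p = 1).

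**Figure D2:**
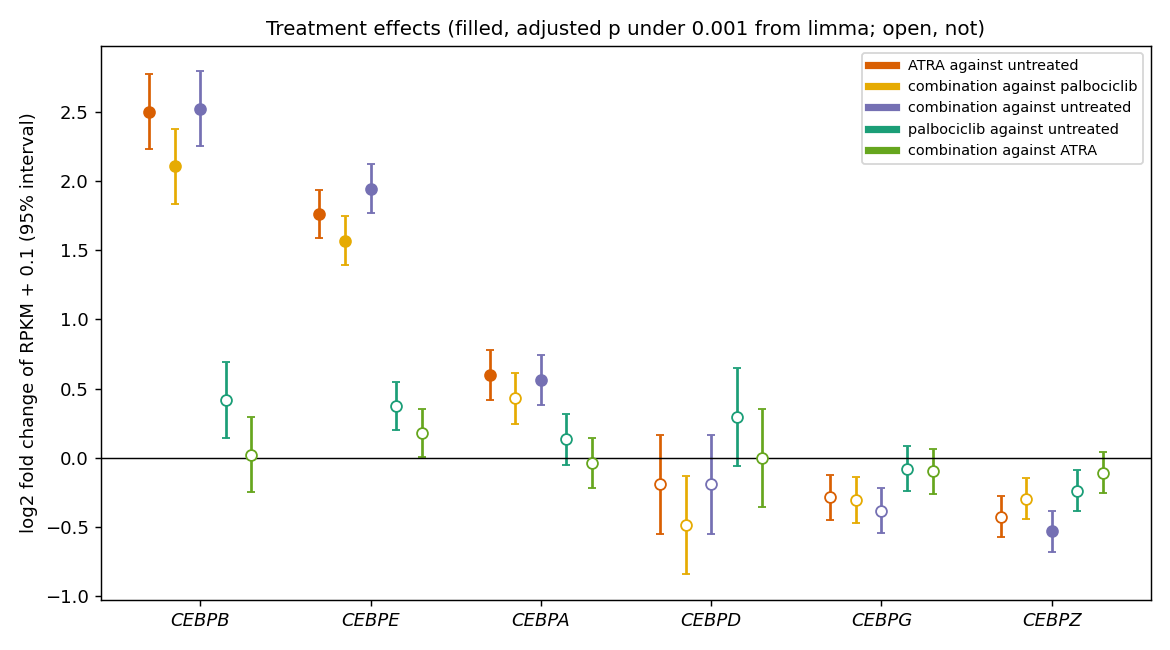
Log2 fold change of RPKM + 0.1 (vertical axis) with its 95% interval for the 6 C/EBP genes (horizontal axis) in 5 comparisons, filled where the adjusted p from limma was under 0.001. CEBPB and CEBPE are filled in the 3 comparisons that add ATRA, CEBPA in 2 of them, CEBPZ only for the combination against untreated cells, and no point is filled for the 2 comparisons that add palbociclib.

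CEBPD (ENSG00000221869, chr8:47736913-47738164 on the minus strand), the inflammation-responsive member, was measured at 6, 7 and 9 RPKM in untreated cells (7.33 ± 1.53, n = 3) and 6, 6 and 7 RPKM with ATRA (6.33 ± 0.577). Palbociclib gave 11, 8 and 8 RPKM (9.0 ± 1.73), and the combination gave 6, 6 and 7 RPKM (6.33 ± 0.577). The untreated libraries overlapped with every other group, while the palbociclib libraries lay above both ATRA-treated groups. The log2 fold change was -0.19 for ATRA against untreated cells (95% interval -0.55 to 0.16, adjusted p = 0.4551, limma), 0.30 for palbociclib (adjusted p = 0.3908) and -0.49 for the combination against palbociclib (95% interval -0.84 to -0.13, adjusted p = 0.08006). For ATRA averaged over both palbociclib states, the comparison added after the values were seen, the log2 fold change was -0.34 (95% interval -0.59 to -0.09, adjusted p = 0.04593, and 0.0351 with the replicate block). Over the 12 fits that left out 1 library the adjusted p of CEBPD in this comparison lay between 0.02514 and 0.09586. At this level 1 step of the rounded table is a large part of the value.

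CEBPG (ENSG00000153879, chr19:33373685-33382686 on the plus strand, 3 exon blocks), the heterodimer partner, has its start site 71151 bases from that of CEBPA. It was measured at 33, 31 and 31 RPKM in untreated cells (31.7 ± 1.15, n = 3) and 28, 25 and 25 RPKM with ATRA (26.0 ± 1.73). The palbociclib libraries had 31, 29 and 30 RPKM (30.0 ± 1.00), and there were 27, 23 and 23 RPKM with the combination (24.3 ± 2.31). All 6 libraries with ATRA were below all 6 without it, and replicate 1 was the highest in each of the 4 groups. The log2 fold change was -0.28 for ATRA against untreated cells (95% interval -0.45 to -0.12, adjusted p = 0.02015, limma), -0.38 for the combination against untreated cells (adjusted p = 0.002894) and -0.30 for the combination against palbociclib (adjusted p = 0.02016). Under the replicate block, which takes up differences between replicate numbers, these adjusted p-values were 0.001043, 0.0001459 and 0.0009873, so that both comparisons of the combination passed and that of ATRA alone did not. In a block fit of only the 9 treated libraries, whose numbers pair, the combination against palbociclib had an adjusted p of 0.003383 for CEBPG and did not pass. The effect of ATRA averaged over both palbociclib states was -0.29 (adjusted p = 0.001579, and 7.678e-05 with the replicate block). Thus CEBPA and CEBPG, neighbours on chromosome 19, had differences of opposite sign with ATRA. For ATRA against untreated cells CEBPA was called in 10 of 23 alternatives. CEBPG was called there in 2 of 23, only at an adjusted p under 0.05.

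CEBPZ (ENSG00000115816, chr2:37201612-37231596 on the minus strand, 17 exon blocks), the nucleolar factor, was measured at 37, 36 and 40 RPKM in untreated cells (37.7 ± 2.08, n = 3) and at 28 RPKM in all 3 ATRA libraries. It was at 29, 33 and 34 RPKM with palbociclib (32.0 ± 2.65) and at 26, 27 and 25 RPKM with the combination (26.0 ± 1.00). All untreated libraries were above all treated libraries, and the palbociclib libraries lay between the untreated and the ATRA-treated ones. It fell by 0.53 on the log2 scale with the combination against untreated cells (SE 0.07, adjusted p = 0.0001901, limma), a call that was lost without untreated replicate 1, untreated replicate 3 or combination replicate 3 (adjusted p of up to 0.001401). The call was also lost with median centring (adjusted p = 0.001774) and with only the libraries compared (0.003782). ATRA against untreated cells gave -0.43 (adjusted p = 0.001267, and 0.0009762 with the replicate block), and palbociclib gave -0.24 (95% interval -0.38 to -0.09, adjusted p = 0.08046). For ATRA averaged over both palbociclib states CEBPZ fell by 0.36 (adjusted p = 0.0002171), a call lost with median centring (adjusted p = 0.001035).

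Counted over the list, ATRA against untreated cells called 3 of the 6 members higher (CEBPE, CEBPB and CEBPA) and 0 lower, where 2.77% of the 7820 tested genes were called higher and 1.94% lower. For the combination against untreated cells 3 members were higher and 1 lower, against 3.76% and 4.28% of all tested genes, and for the combination against palbociclib 2 members were higher, against 2.11%. Palbociclib against untreated cells called 0 of 6 members at this threshold, where 0.0128% of all genes were called higher and 0.486% lower; at an unadjusted p under 0.05, CEBPB, CEBPE and CEBPZ passed, as did 569 genes higher and 790 lower among all 7820. No gene at all was called for the combination against ATRA or for the departure from additivity, although at an unadjusted p under 0.05 the combination had 44 genes above and 243 below their level with ATRA, and the departure was positive for 154 genes and negative for 82. The comparisons against untreated cells share the untreated libraries, whereas ATRA against untreated cells and the combination against palbociclib share no library but were tested in 1 fit with a common estimate of the spread. CEBPE and CEBPB rose in both, and with only the 6 libraries compared in the fit the calls for the combination against palbociclib were lost (adjusted p = 0.001541 for CEBPE and 0.001097 for CEBPB).

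For ATRA averaged over both palbociclib states 3 members were called higher and 1, CEBPZ, lower, where 4.68% of the tested genes were called higher and 4.94% lower. At an adjusted p under 0.05, ATRA against untreated cells had CEBPE, CEBPB and CEBPA higher and CEBPZ and CEBPG lower. Of the tested genes 8.71% were higher and 11.6% lower. The combination against palbociclib gave the same 3 members higher and the same 2 lower at that threshold, against 5.86% and 6.64% of all tested genes. For ATRA averaged over both palbociclib states all 6 members passed at 0.05, 3 higher and 3 lower, against 11.6% and 16.8% of all tested genes. CEBPD was the nearest to the threshold (adjusted p = 0.04593, limma). Palbociclib against untreated cells had 1 member, CEBPE, higher, where 0.908% of genes were higher and 3.16% lower. For palbociclib averaged over both ATRA states it was again CEBPE, where 0.895% of genes were higher and 3.48% lower.

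**Figure D3:**
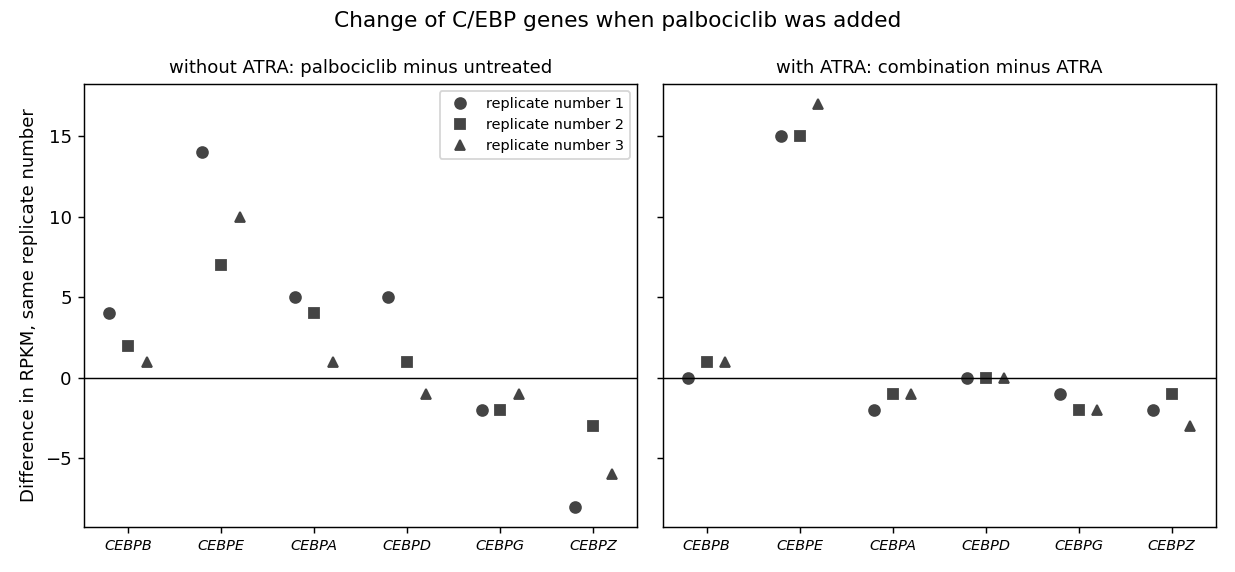
Difference in RPKM (vertical axis) between libraries with the same replicate number when palbociclib was added, for the 6 C/EBP genes, without ATRA (left) and with ATRA (right). CEBPE is higher by 7 to 14 RPKM without ATRA and by 15 to 17 RPKM with ATRA, CEBPB and CEBPA lie within 2 RPKM of 0 with ATRA, and CEBPG and CEBPZ are below 0 at every replicate number. Deviations of same-numbered untreated and palbociclib libraries correlated more weakly (r = 0.096 to 0.351) than those between treated groups. The matching in the left panel is therefore less sure.

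Since RPKM is a level per gene length, the members can be set in order within a group. In untreated cells CEBPZ, CEBPA, CEBPE and CEBPG had mean levels of 37.7, 34.7, 34.3 and 31.7 RPKM, with each neighbour in this order overlapping the next, and CEBPD and CEBPB followed at 7.33 and 7.0 RPKM, also overlapping each other but not CEBPG. With ATRA the order was CEBPE, CEBPA, CEBPB, CEBPZ, CEBPG and CEBPD, and CEBPZ and CEBPG were the only neighbours whose libraries overlapped. With palbociclib CEBPE and CEBPA overlapped at the top, and CEBPB and CEBPD at the bottom. With the combination the order was the same as with ATRA, with overlaps between CEBPA and CEBPB and between CEBPZ and CEBPG. CEBPB thus stood last with no drug and in the third place with ATRA.

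Over the 5 bZIP genes the summed level was 115 ± 5.20 RPKM (SD, n = 3) in untreated cells, 242 ± 5.51 RPKM with ATRA, 131 ± 7.0 RPKM with palbociclib and 255 ± 4.58 RPKM with the combination. Of this sum CEBPE made up 29.8 ± 1.10% in untreated cells and 48.3 ± 1.55% with ATRA, and 34.0 ± 2.31% with palbociclib against 51.9 ± 1.73% with the combination. The share of CEBPB was 6.07 ± 0.643% in untreated cells and 16.5 ± 1.67% with ATRA. The share of CEBPA went from 30.2 ± 0.961% to 21.8 ± 1.67% while its level rose, and that of CEBPG from 27.6 ± 1.92% to 10.8 ± 0.740%. CEBPD made up 6.35 ± 1.04% in untreated cells and 2.63 ± 0.298% with ATRA. These are shares of transcripts per length, not of protein or of dimers, and they are given without a test.

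**Figure D4:**
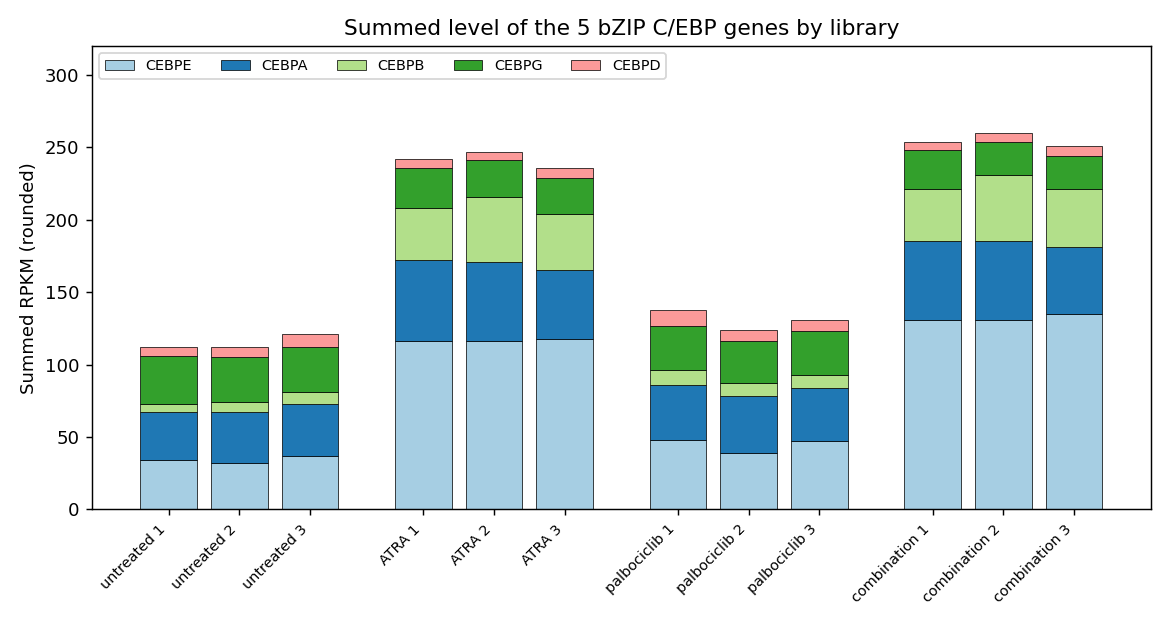
Summed RPKM (vertical axis, starting at 0) of the 5 bZIP C/EBP genes in each of the 12 libraries (horizontal axis), with each gene's part stacked. The sum is 236 to 260 RPKM in the 6 libraries with ATRA and 112 to 138 RPKM in the 6 without it, and CEBPE is the largest part in every library with ATRA.

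Across the 12 libraries the log2 levels of CEBPB and CEBPE had a Pearson r of 0.989, CEBPA and CEBPB of 0.951, CEBPA and CEBPE of 0.934, and CEBPG and CEBPZ of 0.812, while CEBPE and CEBPZ had an r of -0.91. These are descriptions over libraries that share 4 treatments, so that genes that differ with ATRA are correlated by the design. Among the tested genes, the 3 most like CEBPE were PIK3R5, the regulatory subunit of a leukocyte PI3-kinase (r = 0.995), SERPINB1, an inhibitor of neutrophil proteases (0.994), and OGFR (0.992). SERPINB1 had group means of 13.7, 68.0, 17.7 and 78 RPKM in the order untreated, ATRA, palbociclib, combination. Those most like CEBPB were CXCL8, which encodes the neutrophil chemokine interleukin-8 (r = 0.996; 12.7, 59.3, 16 and 59.3 RPKM), FLOT1 (0.995) and ITGA5, the fibronectin receptor's α subunit (0.994). Those most like CEBPA were IFNGR1, a chain of the interferon-γ receptor (r = 0.977), XBP1, a bZIP factor of the unfolded protein response (0.977; 81.0, 135, 95 and 137 RPKM), and BCL3 (0.963). BCL3 had means of 1.0 and 1.33 RPKM in untreated and palbociclib cells, and FLOT1 3.0 and 4.0 RPKM, below the 5 RPKM of the filter. BCL3 thus passed the filter only through the groups with ATRA, where it is high, so its r is a description.

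For CEBPG the 3 most alike genes were PUS7, a pseudouridine synthase (r = 0.991), WDR5, a subunit of histone methyltransferase complexes (0.982), and CA2, a carbonic anhydrase (0.979; 29.7, 12.7, 22.0 and 10.7 RPKM). For CEBPZ they were XPO5, the exporter of microRNA precursors (r = 0.975), PPAT, the first enzyme of purine synthesis (0.971; 19.7, 10.3, 15 and 9.0 RPKM), and PFKP, a phosphofructokinase (0.966). CEBPD had lower coefficients, with MIR621 (0.888), ALG3 (0.884) and B3GALT6 (0.869) as its 3 most alike genes. MIR621 had means of 3.33 RPKM with ATRA and 3.67 RPKM with the combination, below the 5 RPKM of the filter.

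Of 13 genes listed as regulators of C/EBP genes or proteins, 11 were tested, and ATRA against untreated cells called 2 higher and 2 lower, where 2.77% of all tested genes were called higher and 1.94% lower (median log2 fold change of the 11 genes -0.14, against -0.01 over all tested genes). TRIB1, the pseudokinase that brings C/EBPα to the COP1 ubiquitin ligase, was measured at 2 to 3 RPKM in untreated cells (2.33 ± 0.577, n = 3) and at 6 to 8 RPKM with ATRA (7.0 ± 1.0), and rose by 1.56 on the log2 scale (adjusted p = 0.0004262, limma). It passed the filter only through the groups with ATRA, where it is high, so its call is a description. TRIB3, a stress-induced relative, fell from 19.7 ± 0.577 to 13.3 ± 0.577 RPKM (log2 fold change -0.56, adjusted p = 0.0005349). TRIB2, at 3 to 5 RPKM in all libraries, was below the filter, and COP1, listed under its older symbol RFWD2, lay at 12 to 14 RPKM in all libraries. 

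GFI1, a zinc finger repressor of the granulocytic lineage, rose from 55.3 ± 2.08 to 85.0 ± 1.00 RPKM with ATRA (log2 fold change 0.62, adjusted p = 1.181e-05, limma) and was measured at 92.0 ± 1.73 RPKM with the combination. MYB, a factor of immature progenitors, fell from 58.7 ± 5.03 to 28.3 ± 4.04 RPKM (log2 fold change -1.05, adjusted p = 0.0003898). SPI1, which encodes the myeloid factor PU.1, was measured at 83.7 ± 3.22 RPKM in untreated cells and 105 ± 3.00 RPKM with ATRA, which did not pass (adjusted p = 0.001187), and rose to 111 ± 1.00 RPKM with the combination (log2 fold change 0.41, adjusted p = 0.0001849). RARA, the retinoic acid receptor gene, was likewise called higher for the combination against untreated cells (10.3 ± 0.577 against 17.0 ± 2.65 RPKM, log2 fold change 0.70, adjusted p = 0.000837), while ATRA alone gave 16.3 ± 1.53 RPKM (adjusted p = 0.002018). The combination differed from ATRA by 0.08 for SPI1 and 0.05 for RARA on the log2 scale (both adjusted p = 1), and both genes were called higher for ATRA averaged over both palbociclib states. RXRA, the heterodimer partner of the retinoic acid receptor, was at 13.3 ± 1.15 RPKM in untreated cells and 9.0 ± 1.0 RPKM with ATRA (log2 fold change -0.56, adjusted p = 0.007056) and was called lower for ATRA averaged over both palbociclib states (-0.64, adjusted p = 0.0002198). The combination against untreated cells called 4 regulators higher and 2 lower, TRIB1 among them, against 3.76% and 4.28% of all tested genes. Palbociclib against untreated cells called 0 of 11 in either direction, against 0.0128% and 0.486%.

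**Figure D5:**
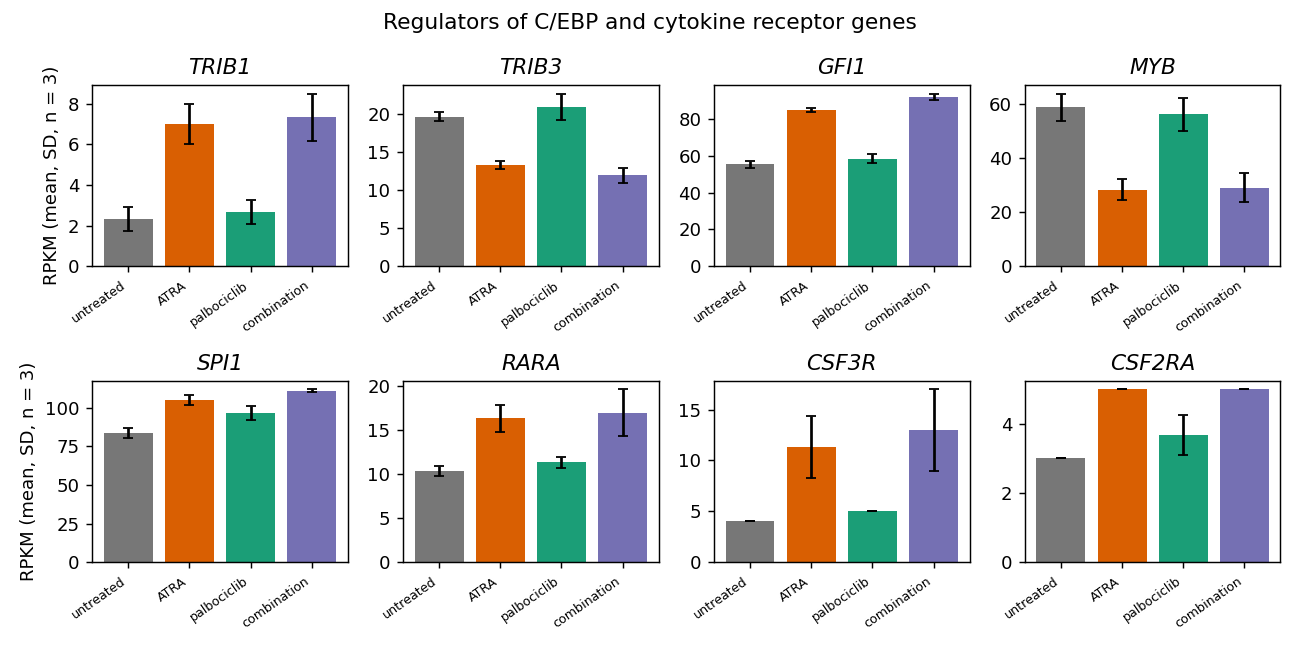
Mean RPKM (vertical axes, starting at 0) with SD over 3 libraries for 6 regulators of C/EBP genes or proteins and 2 cytokine receptor genes, by treatment. TRIB1, GFI1, CSF3R and CSF2RA have their 2 highest means in the groups with ATRA, and TRIB3 and MYB their 2 lowest.

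Of 21 granule and receptor genes known to carry C/EBP sites, 8 passed the filter. The median log2 fold change of the 8 genes with ATRA was 0.03, against -0.01 over all tested genes, with 1 called higher and 0 lower, where 2.77% and 1.94% of all tested genes were called. That gene was CSF2RA, the α chain of the GM-CSF receptor, at 3 RPKM in all untreated and 5 RPKM in all ATRA libraries (log2 fold change 0.72, adjusted p = 0.0009317, limma). CSF2RA passed the filter only through the groups with ATRA, where it is high, and identical values within groups follow from the rounding, so this call is a description. CSF3R, the G-CSF receptor gene, was at 4 RPKM in all untreated libraries, 8 to 14 RPKM with ATRA (adjusted p = 0.001128, not passed) and 9 to 17 RPKM with the combination (log2 fold change 1.63, adjusted p = 0.0003379). The secondary and later granule genes LTF, CAMP, LCN2, MMP8, MMP9, CEACAM8, PGLYRP1 and OLFM4 were listed at 0 in all 12 libraries. Of the primary granule genes, MPO was at 1346 ± 81.7 RPKM in untreated cells and 1133 ± 65.6 RPKM with ATRA (adjusted p = 0.06247), and PRTN3 at 222 ± 28.1 and 276 ± 31.8 RPKM (adjusted p = 0.1472). LYZ, the lysozyme gene, was at 1011 ± 126 RPKM in untreated cells and 692 ± 21.8 RPKM with ATRA (log2 fold change -0.54, adjusted p = 0.007378), and was called lower only for ATRA averaged over both palbociclib states (-0.58, adjusted p = 0.0003227).

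The bZIP relatives and partners of C/EBP proteins numbered 16 genes, of which 9 were tested, and 0 of the 9 were called in any comparison (median log2 fold change -0.05 for ATRA and -0.09 for the combination against untreated cells, against -0.01 and -0.01 over all tested genes). For ATRA against untreated cells 2.77% of all tested genes were called higher and 1.94% lower, so 0 of 9 is near these shares. DDIT3, which encodes the inhibitory partner CHOP, was at 10 to 12 RPKM in untreated cells, 15 to 19 RPKM with ATRA (log2 fold change 0.59, adjusted p = 0.009019, limma). It was at 16 to 21 RPKM with the combination (0.70, adjusted p = 0.002411), and neither group overlapped with the untreated one. ATF4, the stress-response factor that pairs with C/EBP proteins, was at 220 ± 7.77 RPKM in untreated cells and 227 ± 37.2 RPKM with ATRA. ATF5, JUNB, JUND and NFIL3 were also tested and not called.

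Of 10 neighbouring and antisense genes in the table, 5 were tested and 0 were called in any comparison. For ATRA against untreated cells 2.77% of all tested genes were called higher and 1.94% lower, so 0 of 5 is near these shares. PEPD, beside the CEBPA and CEBPG genes, was at 11 to 13 RPKM in all groups, PTPN1, beside CEBPB, at 57 to 66 RPKM, and NDUFAF7, beside CEBPZ, at 8 to 9 RPKM. On the opposite strand, CEBPB-AS1, which shares 12.6% of the exonic bases of CEBPB, was listed at 0 in all libraries, as were both long non-coding genes that share 25.3% and 18.5% of the CEBPA exonic bases. CEBPZOS, which shares 10.0% of the CEBPZ exonic bases, was at 4 to 5 RPKM in every group. The preparation is not stated to keep strand, and reads of a gene and its antisense partner cannot then be told apart.

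The libraries as a whole summed to 358455 to 390247 RPKM, a figure that is not a read total, so the depth of each library is unknown from these values and no counting error is given. The retinoid target DHRS3 rose from 0.333 ± 0.577 RPKM in untreated cells to 45 ± 4.36 RPKM with ATRA (log2 fold change 7.66, adjusted p = 0.0003845, limma). DHRS3 passed the filter only through the groups with ATRA, where it is high, so its call is a description. Its fold change depends on the added constant of 0.1. The retinoid targets CYP26A1 and RARB were listed at 0 in every library. CCNE1, the E2F target that encodes cyclin E1, fell from 14.3 ± 1.15 RPKM to 5 RPKM in all 3 palbociclib libraries (-1.50, adjusted p = 7.359e-05). CCNE1 was also lower with ATRA alone, at 8.33 ± 0.577 RPKM (-0.77, adjusted p = 0.0003198), so it does not mark palbociclib by itself. E2F1 and MCM2 were called lower with palbociclib against untreated cells (log2 fold change -1.43 and -0.66, both adjusted p = 0.000287, limma). With ATRA alone they had lower values that did not pass (-0.60, adjusted p = 0.008369, and -0.21, adjusted p = 0.02835). Summed myeloid markers (6 genes, of which only ELANE was listed at 0 in all untreated libraries) lay at 1551 to 1771 RPKM in untreated cells, 1443 to 1635 with ATRA, 1716 to 1932 with palbociclib and 1468 to 1712 with the combination. MPO made up most of this sum (mean 1346 RPKM in untreated cells, with PRTN3 next at 222 RPKM), so the ranges mainly follow MPO. Of 10 markers of other cell types, 9 were listed at 0 in every library, and the remaining gene PECAM1, which myeloid cells also express, was at 2 RPKM in untreated cells, 4 to 6 RPKM with ATRA and 4 to 6 RPKM with the combination (log2 fold change 1.26 in both, adjusted p = 0.00135 and 0.0009017). PECAM1 passed the filter only through the groups with ATRA, where it is high, so these values are a description. The part of the PECAM1 difference in the results above was not tested. Fewer cells of a type and less RNA per cell cannot be told apart in these bulk samples.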

How the data were processed

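HL-60 cells (12 libraries, 3 per group) were sequenced by the authors after TruSeq poly(A) library preparation; reads were mapped to hg38 with HISAT2 and assigned to genes by htseq-count run with defaults, and the submitters' processing notes name the same tools. The deposited score values are RPKM that the authors rounded to whole numbers, without pooling of replicates, for 58233 genes, and 0 per-sample columns were left unused. The values were not treated as counts. Genes with at least 5 RPKM in at least 3 libraries (7820) were tested with limma 3.58.1 in R 4.3.3 on log2(RPKM + 0.1), with 1 mean per group over all 12 libraries, eBayes with a variance trend and Benjamini-Hochberg adjustment within each comparison; fold changes refer to RPKM + 0.1, and those of genes near 0 depend on this constant and on the rounding; calls were made below an adjusted p of 0.001. Ratios of means are of RPKM. Tables were made in Python 3.11.15, and the procedure was tested on simulated data.

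The members and lists were chosen with earlier results of these data known. Genes named are the 6 members, the listed genes and the 3 tested genes most correlated with each member. The averaged comparisons, the fits of 9 treated libraries with a block and the block at an adjusted p under 0.05 were added after the values were seen. Deviations of same-numbered libraries correlated for the pairs of treated groups (ATRA with combination, 0.782 to 0.908; ATRA with palbociclib, 0.497 to 0.751; combination with palbociclib, 0.438 to 0.702). The replicate numbers therefore pair the treated libraries. Untreated with treated libraries gave 0.045 to 0.367, not all over 0.1. In each of these pairs of groups the lowest same-number value was still above the highest value for other numbers. Those other-number values ran from -0.242 to 0.057. Libraries of a group shared identical values for too few genes to be duplicates. Loci come from GENCODE on GRCh38 and promoter windows from RefSeq (GRCh38.p14). Alternatives covered the filter, pseudocount, scaling, variance trend, samples in the fit, replicate block, threshold and left-out libraries.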

Additional observations from a re-analysis of the deposited data

How the results depend on the processing

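Of the other settings of the tests, 1033 results kept their side of the threshold without a reversal of sign, 34 became weaker, 34 stronger and 9 changed sign, none of which was called. The 1033 include CEBPD for the combination against ATRA, which was 0 in the fit reported and so had no sign to reverse. Its values in the other settings ran from -0.073 to 0.073. With median centring CEBPA was 0.0016 for the combination against ATRA in place of -0.04, and it was 0.0098 without ATRA replicate 1 and 0.0404 without combination replicate 3; CEBPB in this comparison was -0.05 without ATRA replicate 1 and -0.0696 without combination replicate 2, and the departure of CEBPG was 0.0347, 0.0042 and 0.0188 without ATRA replicate 1, palbociclib replicate 1 and combination replicates 2 or 3. Over all left-out libraries these values ran from -0.1164 to 0.0404 for CEBPA, -0.0696 to 0.1105 for CEBPB and -0.0964 to 0.0347 for CEBPG. Members called went from 3 to 5 for ATRA against untreated cells, from 0 to 1 for palbociclib against untreated cells, from 2 to 5 for the combination against palbociclib from 4 to 5 for the combination against untreated cells, from 4 to 6 for ATRA averaged and from 0 to 1 for palbociclib averaged over both ATRA states at an adjusted p under 0.05. With the replicate block at that threshold they numbered 5, 3, 5 (5 also in the 9 treated libraries), 5, 6 and 2; at 0.001 the replicate block changed only the calls given beside CEBPG and CEBPZ. For the combination against untreated cells 4 became 2 with median centring and with only the libraries compared, and for the combination against palbociclib 2 became 0 with only the libraries compared, a fit of 6 libraries; leaving out single libraries gave 2 to 4 and 2 to 3 members for the combination and for ATRA against untreated cells, 2 in every case for the combination against palbociclib, and 4 to 5 for ATRA averaged. Over all genes, calls for ATRA ranged from 54 to 1148 higher (217 in the fit reported) and 24 to 1619 lower (152), those for the combination against untreated cells from 49 to 1546 higher (294) and 22 to 1992 lower (335), those for the combination against palbociclib from 20 to 1228 higher (165) and 1 to 1585 lower (78), and those for palbociclib from 0 to 430 higher (1) and 0 to 636 lower (38); for the combination against ATRA they reached 45 and 143 and for the departure 54 and 31, where the fit reported gave 0. For ATRA averaged they ranged from 273 to 1393 higher (366) and 226 to 1972 lower (386), and for palbociclib averaged from 0 to 386 (1) and 10 to 639 (44). The fits of only the libraries compared used 6 libraries in place of 12, and for the other changes the cause was not tested. The rounding to whole RPKM limits CEBPB in untreated cells and CEBPD in all groups.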

Other observations

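Some genes below the filter are given here by their values, without a test because they lie within a few rounding steps of 0. JUN, a subunit of AP-1, was at 4 to 5 RPKM in untreated cells and 3 to 4 RPKM with palbociclib, and at 1 RPKM in all 6 libraries with ATRA. TEF, a member of the PAR bZIP group, was at 2 to 3 RPKM in the libraries without ATRA and at 1 RPKM in all with it. BATF3 was at 3 RPKM in all untreated libraries and at 1 to 2 RPKM in both ATRA-treated groups, with palbociclib at 2 to 3 RPKM, which overlaps them. FOS was at 2 RPKM in all 12 libraries. ITGAM, which encodes the surface marker CD11b, was at 0 RPKM in all untreated libraries and at 1 to 2 RPKM in both ATRA-treated groups.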
